A study of Citrus sinensis with 4 samples.

Results

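The genes described here are those of the fruit peel of 'Newhall' navel orange whose transcripts stood clearly higher at 150 than at 120 days after flowering. A locus was taken when the lower of its 2 values at 150 days was at least 2 times the higher of its 2 values at 120 days, and its mean at 150 days was at least 5 FPKM. FPKM are fragment numbers divided by transcript length and by the mapped fragments of the library, which puts genes of different length on one scale. At a very short locus, few fragments can still give a high value. Loci were considered only when the table gives them a single gene identifier, beginning with Cs or with orange1.1t. Of 31126 loci in the table, 28724 carry such an identifier and 255 met the rule. They carry 253 different identifiers, and 226 of the loci have a Cs and 29 an orange1.1t identifier.

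The peel of a citrus fruit consists of an outer pigmented layer, the flavedo, and an inner white layer, the albedo, beneath an epidermis sealed by a cuticle of cutin and waxes. As an orange matures, the flavedo loses chlorophyll and gains carotenoids, while wax continues to be laid down on the surface. This is general background and is not read from the values given here.

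The study compared untreated peel of sweet orange (Citrus sinensis) at 120 and at 150 days, to follow cuticle formation while the fruit develops and ripens. Each stage has 2 libraries, from sample pools that the series describes as independent biological replicates. The labels do not tell how many fruits or trees went into a pool, or what libraries of 1 number have in common. The median over loci averaging 1 FPKM or more lay between 14.6 and 15.1 in the 4 libraries, and the fragment depth is unknown. RNA came from whole peel, so more cells of one type and more RNA per cell cannot be told apart.

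The table pairs no identifier with a gene name. Of the 253 identifiers, 0 were found among the 29331 genes of the RefSeq table for the sweet orange assembly DVS_A1.0. The members are therefore called by their identifiers, without a function, a position or a sequence, and markers of the peel's cell types could not be looked up.

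Most members were already above 1 FPKM at 120 days, and their levels at 150 days lay mostly a few times higher. Values of the members ran from 0 over a median of 5.78 to 704 FPKM in 120-day replicate 1 and from 0 over 5.66 to 716 FPKM in replicate 2. At 150 days they ran from 0 over a median of 19.9 to 1587 FPKM in replicate 1 and from 4.19 over 20.4 to 1516 FPKM in replicate 2. Both stages thus spanned low and high transcripts. The middle of the set moved from below to above the median of all loci with a single identifier that averaged 1 FPKM or more. That median was 15.1 and 15.7 FPKM at 120 days against 15.7 and 15.1 FPKM at 150 days. The rule selects for a rise, so this move is a description only. At 120 days, 126 members had at least 5 FPKM in both libraries and 111 were under 5 FPKM in both. Only 9 were under 1 FPKM in both, and the highest of these by its 150-day mean, orange1.1t01447, reached 24.4 FPKM.

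The ratio of the 150-day to the 120-day mean had a median of 3.21 over the 253 members for which it exists, with quartiles of 2.60 and 4.46. A stricter measure, used below, is the separation fold, the lower 150-day value over the higher 120-day value. It had a median of 2.52 and lay between 2 and 2.5 for 122 members, between 2.5 and 3 for 41, between 3 and 4 for 43, between 4 and 8 for 35, and at 8 or more for 12. The members were chosen by these same values, the FPKM of the 4 libraries, which are therefore given as a description.

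**Figure D1:**
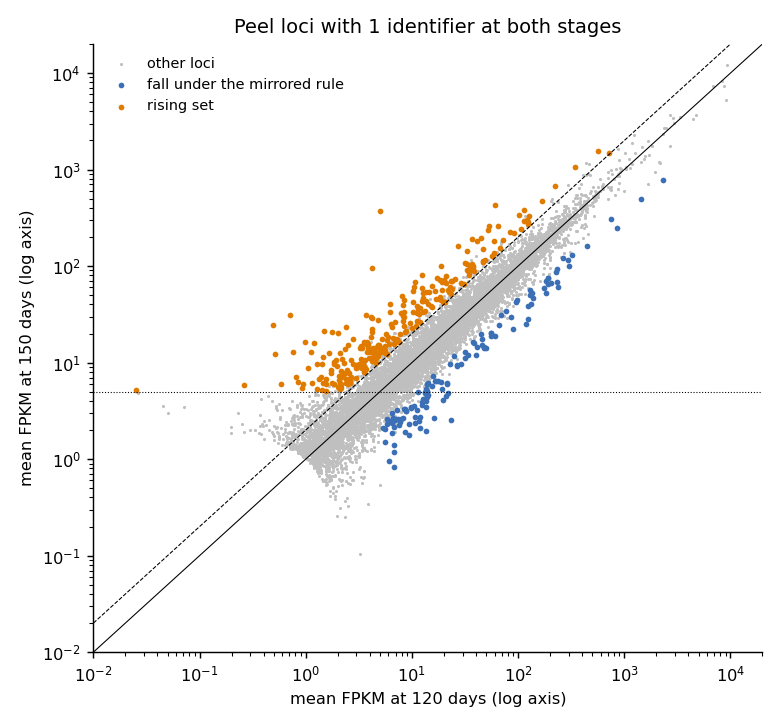
Mean FPKM at 120 days (x axis) against mean FPKM at 150 days (y axis), both on log axes, for loci with 1 identifier averaging 1 FPKM or more. The solid line marks equal levels, the dashed line 2 times the 120-day level and the dotted line 5 FPKM. The rising set (orange) lies above the dashed line at 150-day means from 5.10 to 1551 FPKM, most of it close to that line. Loci with a stage mean of 0, among them 2 members, cannot be drawn on these axes.

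Median separation folds, which the rule bounds from below at 2, were close in high and low members. The 63 members with 150-day means from 5 to 10 FPKM had a median separation fold of 2.51, and the 37 members with at least 100 FPKM had one of 2.41. Members made up 2.43% of the 2588 loci in the lower class and 3.07% of the 1207 loci in the upper one. The share was lowest, 1.37% of 4013 loci, between 20 and 50 FPKM. Of the 37 members at 100 FPKM or more, 4 had a separation fold of 4 or more. Over all 253 members with a defined fold, 35 had one from 4 to under 8 and 12 had one of 8 or more.

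The summed FPKM of the members was 6047 and 5749 at 120 days and 17369 and 18666 at 150 days. Of the sum over all loci with a single identifier, this was 0.806% and 0.765% at 120 days, against 2.23% and 2.15% at 150 days. Without the 57 loci that reached 1000 FPKM in any library, members included, the shares were 0.826% and 0.756% against 2.44% and 2.57%. The rule selects for a rise, so the higher share at 150 days is a description only. FPKM are scaled to length, so these are not shares of fragments.

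The most abundant member at 150 days was Cs1g24440, with 536 and 586 FPKM at 120 days against 1587 and 1516 FPKM at 150 days. Cs1g20580 stood at 704 and 716 FPKM at 120 days and at 1475 and 1467 FPKM at 150 days. Both had close replicates and a gap between the stages of about the size of the 120-day level or more. By mean FPKM among loci with a single identifier, Cs1g24440 moved from rank 78 to rank 26 and Cs1g20580 from rank 63 to rank 28. Cs1g20580 was the steadiest of the abundant members within the stages (709.8 ± 8.79 FPKM at 120 days and 1471 ± 6.06 FPKM at 150 days, SD, n = 2), and its separation fold of 2.05 was near the limit of the rule.

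Cs1g01540 had 381 and 302 FPKM at 120 days against 902 and 1241 FPKM at 150 days. Its replicates were further apart, yet the stages did not overlap. Cs2g23280 had 226 and 223 FPKM at 120 days against 624 and 714 FPKM at 150 days, and Cs7g02680 had 178 and 161 FPKM against 445 and 501 FPKM. All 3 had a separation fold between 2.37 and 2.76, in the middle of the set.

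The next members by level at 150 days moved further. Cs2g07250 had 69.3 and 53.0 FPKM at 120 days against 415 and 435 FPKM at 150 days, a separation fold of 5.99. Cs2g07240, the preceding identifier, had 122 and 106 FPKM at 120 days against 399 and 360.4 FPKM at 150 days, a separation fold of 2.95. At 120 days Cs2g07240 was the higher of this pair in both libraries, and at 150 days Cs2g07250 was. In rank, Cs2g07250 moved from 2149 to 142 and Cs2g07240 from 980 to 172.

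The member orange1.1t03769 combined a high final level with a low start. It had 4.21 and 5.82 FPKM at 120 days against 429.6 and 321 FPKM at 150 days. Its separation fold of 55.2 was the highest among members above 0 in every library, and its rank went from 12778 to 174. The identifier that follows it, orange1.1t03770, was far lower, with 0.424 and 0.854 FPKM at 120 days against 2.47 and 2.02 FPKM at 150 days. A further member stands 4 steps from it in the identifier order, orange1.1t03773, with 1.84 and 2.47 FPKM at 120 days against 8.78 and 7.75 FPKM at 150 days.

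**Figure D2:**
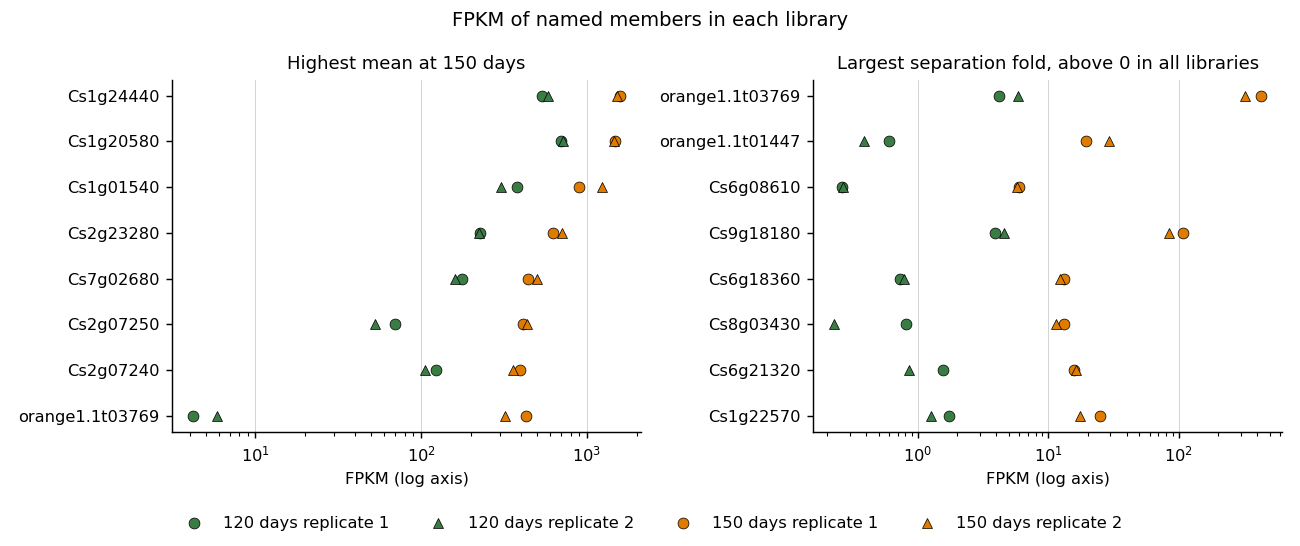
FPKM (log axis) of the 8 members with the highest 150-day mean (left) and of the 8 members above 0 in all libraries with the largest separation fold (right), 1 point per library. Green marks 120 days and orange 150 days, circles replicate 1 and triangles replicate 2. The left panel shows abundant members with gaps of 2- to 3-fold, except Cs2g07250 and orange1.1t03769, and the right panel shows members that start at under 6 FPKM and stand at least 10 times higher at 150 days.

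After orange1.1t03769, the members above 0 in every library with the widest separation had low levels at 120 days. orange1.1t01447 had 0.596 and 0.388 FPKM at 120 days against 19.5 and 29.3 FPKM at 150 days, a separation fold of 32.7. Cs6g08610 had 0.259 and 0.268 FPKM at 120 days against 6.002 and 5.75 FPKM at 150 days, a separation fold of 21.5. Cs9g18180 went higher than these, from 3.87 and 4.57 FPKM to 107 and 84.4 FPKM, a separation fold of 18.5. In each of these loci both 150-day libraries stood far above both 120-day libraries, with replicates at most 1.53-fold apart.

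Cs6g18360 had 0.725 and 0.778 FPKM at 120 days against 13.1 and 12.3 FPKM at 150 days. Cs8g03430 had 0.808 and 0.228 FPKM at 120 days against 13.1 and 11.5 FPKM at 150 days. Cs6g21320 had 1.54 and 0.860 FPKM against 15.8 and 16.3 FPKM, and Cs1g22570 had 1.73 and 1.26 FPKM against 25.1 and 17.5 FPKM. The 120-day values of Cs8g03430 differed 3.54-fold between replicates, and its ratio of the stage means, 23.8, was well above its separation fold of 14.2. At levels under 1 FPKM the number of fragments behind a value is unknown, and the size of such folds is correspondingly uncertain.

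No fold is given against a value listed at 0, since such an entry need not mean that the transcript was missing. Of the 255 members, 246 were above 0 in all libraries, 7 were listed at 0 in 1 of the 120-day libraries and 2 in both. Cs2g15880 read 0 at 120 days in both libraries and had 10.4 and 9.92 FPKM at 150 days. The other, orange1.1t05281, read 0 in both 120-day libraries, also in 150-day replicate 1, and had 10.2 FPKM in 150-day replicate 2 alone. It met the rule because 0 is not less than 2 times 0, and its values show no separation of the stages. Without it the set has 254 loci.

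Members just inside and just outside the limits were close to each other, so the borders of the set do not mark a break in the data. Just inside the fold limit were Cs1g09640, Cs7g31930 and orange1.1t02043, with separation folds of 2.001, 2.002 and 2.004. Just outside it were Cs9g14690, Cs2g01090 and Cs3g17520, with 1.999, 1.997 and 1.993. The loci outside were higher at 150 days (77.1, 29.2 and 53.1 FPKM) than those inside (7.02, 12.7 and 9.79 FPKM). Just inside the level limit were Cs5g01270, orange1.1t05281 and Cs6g13180 with 150-day means of 5.10, 5.12 and 5.20 FPKM. Just outside it were Cs1g14770, Cs3g23560 and Cs9g18210 with 4.96, 4.92 and 4.83 FPKM. The last of these was widely separated, with 0.0525 and 0 FPKM at 120 days against 5.19 and 4.46 FPKM at 150 days.

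Within the stages most members agreed closely between replicates. The fold between the replicates had a median of 1.20 at 120 days over the 246 members above 0 in both libraries, and of 1.15 at 150 days. Among all 12874 loci with a single identifier and a mean of at least 5 FPKM, the medians were 1.16 at both stages. At 120 days, 82.9% of the members and 92.6% of those loci had replicates within 1.5-fold, and at 150 days 89.8% and 91.9% did. The rule asks for a gap between the stages, which can favour loci with close replicates, and many members are low at 120 days. The part of either in these folds was not tested. Where both libraries of a stage were above 0, 13 members had replicates 2-fold or more apart. No such fold is given for the 120-day replicates of the 7 members listed at 0 in 1 of those libraries, or for the 150-day replicates of orange1.1t05281.

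Among replicates above 0, the widest fold was found in orange1.1t00489, with 3.01 and 0.838 FPKM at 120 days against 11.5 and 9.65 FPKM at 150 days. It was followed by Cs8g03430, given above, and by Cs2g08560, with 9.19 and 3.39 FPKM at 120 days against 21.2 and 28.9 FPKM at 150 days. In all 3 the spread lay at 120 days, where replicate 1 was the higher. Over the whole set, replicate 1 was the higher 120-day library at 148 members (58.0%), against 42.1% of the 12874 loci. Replicate 2 was the higher 150-day library at 144 members (56.5%), against 46.1%. The members thus leaned the other way from the loci at large within both stages, and the part of this in the stage difference was not tested.

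In a limma fit over the 18727 loci that averaged 1 FPKM or more, 1.92% were called higher at 150 days at an adjusted p of 0.05 (Benjamini-Hochberg), and 1.85% of the 16339 among them with a single identifier. All 255 members entered the fit, which the level limit ensures, and 204 of them (80.0%) were called. The rule used the same contrast, so this count is no further evidence. The 51 members that were not called had a median 150-day mean of 8.64 FPKM and a median separation fold of 2.27, against 30.0 FPKM and 2.64 for the 204. Another 99 loci with a single identifier were called higher without meeting the rule. With no filter on low values, 86 members and 116 loci in all were called higher, and with the replicate number as a block 243 members and 560 loci were. The number of called members rested on each library. It was 135 without 120-day replicate 1, 75 without 120-day replicate 2, 20 without 150-day replicate 1 and 6 without 150-day replicate 2.

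The opposite pattern was less common. With the stages exchanged, 129 loci met the same rule, which is 1.01% of the 12790 loci with a single identifier and at least 5 FPKM at 120 days. The rising set makes up 1.99% of the 12837 such loci at 150 days, and 0.888% of all 28724. The rising set was the larger under every alternative fold, level limit and scaling and without any one library, with 92 against 27 loci at a fold of 3 and 578 against 356 at a fold of 1.5. Without 120-day replicate 1 there were 389 rising and 227 falling loci, and without 150-day replicate 2 there were 341 and 227. This difference in number was not tested.

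Members tended to have other members beside them in the numbering of the identifiers. Among the 13808 loci with a single Cs identifier that averaged 1 FPKM or more, taken in the order of their identifiers, 1.64% were members. Of the 452 places next to a member, 34 (7.52%) were held by another member and 1 (0.221%) by a locus of the mirrored falling set, which makes up 0.804% of these loci. In all, 33 of the 226 members on the Cs series had a member beside them, in 15 pairs and 1 run of 3. One of these pairs is a single identifier, Cs2g22210, cut into 2 loci, and without it 31 members remain. Neighbours that were not members were shifted slightly. Their log2 ratio of the stage means had a median of 0.03, against -0.02 for all loci that were not members, and 14.6% of the 410 neighbours were at least 1.5-fold higher at 150 days, against 7.36%. The number of members with a member beside them was 69 without 120-day replicate 1 and 52 without 150-day replicate 1. The rising set itself then had 389 and 379 loci. At a fold of 3 the set had 92 loci, and 6 members had a member beside them. Neighbouring loci that share sequence can also share fragments, which was not tested.

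The locus numbers of the table pass through the identifiers of each Cs series 2 times in rising order, with few exceptions. Of the 16 runs, 8 lie within 1 pass and 8 join loci of both passes. What divides the passes is not stated in the file.

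The run of 3 was Cs3g18050, Cs3g18060 and Cs3g18070. Cs3g18050 had 2.13 and 1.54 FPKM at 120 days against 4.92 and 6.99 FPKM at 150 days. Cs3g18060 had 4.23 and 3.20 FPKM against 13.9 and 17.5 FPKM, and Cs3g18070 had 6.02 and 4.49 FPKM against 18.5 and 16.7 FPKM. All 3 were low at 120 days and between 3.24 and 4.24 times higher on the stage means at 150 days. The loci on either side were not members. Cs3g18040 had 141 and 138 FPKM against 144 and 139.9 FPKM, and Cs3g18080 had 38.03 and 43.8 FPKM against 35.5 and 24.96 FPKM. The locus before Cs3g18040, Cs3g18030, was higher at 150 days without meeting the rule (180.3 and 156 FPKM against 295 and 325 FPKM).

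The pair with the highest summed level was Cs2g07240 and Cs2g07250, described above. Their nearest neighbours above 1 FPKM did not share the difference, with 19.2 and 22.6 FPKM against 17.0 and 13.3 FPKM in Cs2g07220 and 28.2 and 29.7 FPKM against 30.8 and 35.1 FPKM in Cs2g07270. The next pair by level joined unlike members. Cs6g08600 had 128 and 113 FPKM at 120 days against 292 and 307 FPKM at 150 days, while Cs6g08610 was the low locus with the 21.5-fold separation given above. The 2 loci of a neighbouring pair can thus differ widely in level and in fold.

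**Figure D3:**
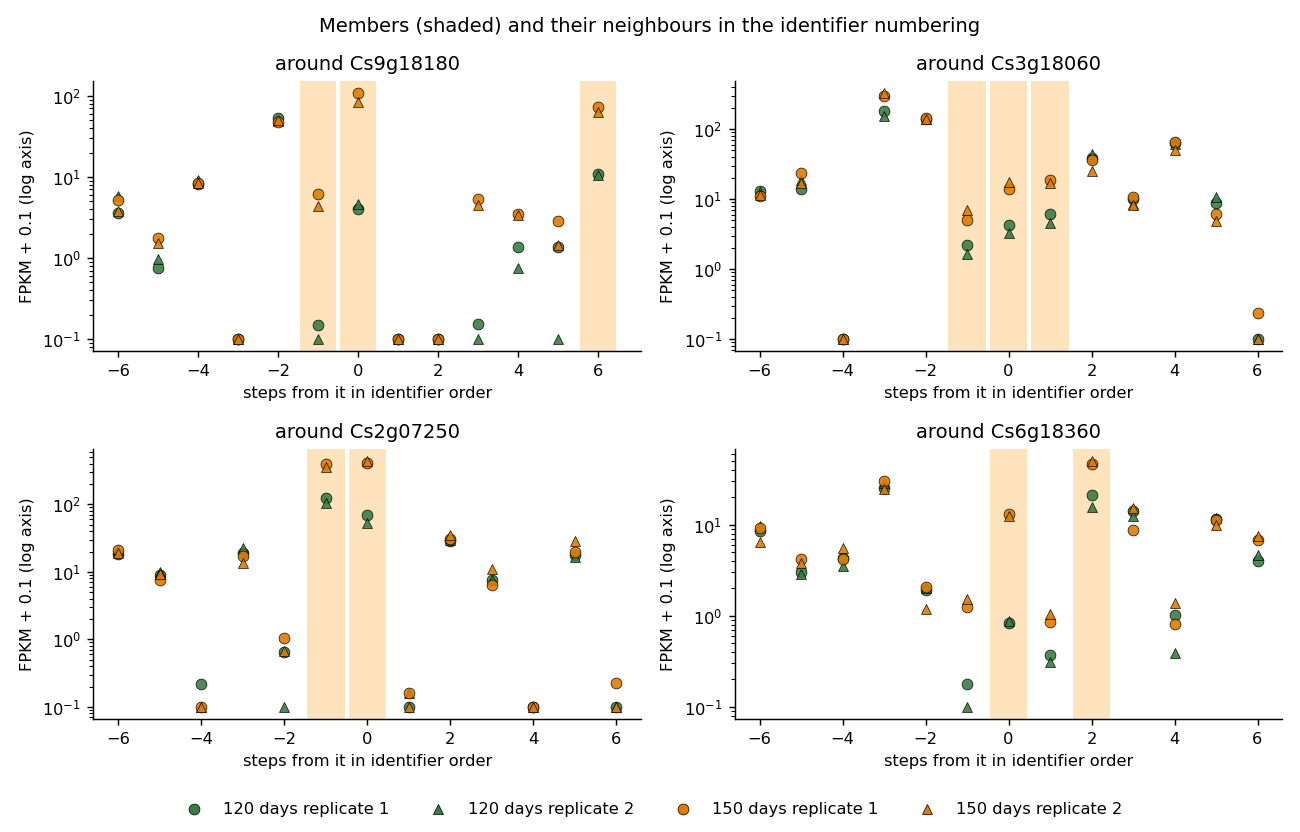
FPKM + 0.1 (log axis) of 4 members and of the 6 loci on either side of each in the order of the identifiers, 1 point per library (green 120 days, orange 150 days, circles replicate 1, triangles replicate 2). Shading marks members. Around Cs3g18060 and Cs2g07250 the nearest loci above 1 FPKM on either side of the shaded run show no such difference between the stages. Around Cs9g18180 and Cs6g18360 low loci outside the shading, such as Cs9g18210 and Cs6g18350, are higher at 150 days in both libraries.

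The stretch around Cs9g18180 held several loci with very low values at 120 days. It is described because of its values. Cs9g18170, the preceding identifier and also a member, had 0.0503 and 0 FPKM at 120 days against 6.14 and 4.33 FPKM at 150 days. Its separation fold, 86.0 against a 120-day value of 0.0503 FPKM, was the largest of the set. Cs9g18190 and Cs9g18200 were listed at 0 throughout. They are followed by Cs9g18210, which missed the level limit as given above, and by Cs9g18220, with 1.25 and 0.652 FPKM against 3.35 and 3.29 FPKM. Cs9g18230 had 1.26 and 0 FPKM at 120 days against 2.73 and 1.33 FPKM at 150 days, a separation fold of only 1.05. Cs9g18240 was again a member, with 10.9 and 10.5 FPKM at 120 days against 72.2 and 63.8 FPKM at 150 days. Cs9g18160, before the stretch, was level at 52.9 and 49.2 FPKM against 47.7 and 50.5 FPKM.

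Another such stretch lay around Cs6g18360. Beside it, Cs6g18350 had 0.0796 and 0 FPKM at 120 days against 1.16 and 1.42 FPKM at 150 days, and Cs6g18370 had 0.271 and 0.210 FPKM against 0.754 and 0.947 FPKM. The following identifier, Cs6g18380, was a member with 21.2 and 15.6 FPKM against 46.0 and 49.8 FPKM. The 4 consecutive loci were thus higher at 150 days in both libraries, at levels from 0.754 to 49.8 FPKM. Near Cs8g03430 the pattern was mixed. Cs8g03440, the next identifier, had 7.20 and 4.04 FPKM at 120 days against 2.78 and 2.52 FPKM at 150 days, opposite to Cs8g03430 and to Cs8g03480, a member with 2.42 and 1.13 FPKM against 19.7 and 22.0 FPKM. The loci directly beside Cs6g21320 and Cs1g22570 formed no such stretch. They were listed at 0 throughout, except Cs6g21330 with 1.09 and 2.44 FPKM against 1.76 and 1.25 FPKM.

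Consecutive numbers also occurred among the orange1.1t members. The locus after orange1.1t01447, orange1.1t01448, had 0 and 1.41 FPKM at 120 days against 27.9 and 34.6 FPKM at 150 days, a separation fold of 19.7. Both were low at 120 days and between 19.5 and 34.6 FPKM at 150 days. The pair orange1.1t00489 and orange1.1t00490 was less sharp, with 5.18 and 6.07 FPKM against 14.6 and 12.4 FPKM in the latter.

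In a few cases 1 identifier stands at several loci, and the loci need not move together. Both loci of orange1.1t05165 were members, with 1.95 and 0 FPKM at 120 days against 19.9 and 13.0 FPKM at 150 days in one and 2.24 and 0 FPKM against 13.5 and 12.3 FPKM in the other. Both were listed at 0 in 120-day replicate 2. For Cs9g14520, 1 locus was a member with 14.0 and 8.83 FPKM against 36.2 and 35.9 FPKM. The other stood at 10688 and 7763 FPKM against 16885 and 7081 FPKM, with stages that overlapped. How the authors' processing divided fragments between such loci is not stated in the labels.

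Members came from all 9 Cs series and from the orange1.1t series. Among loci with at least 5 FPKM at 150 days, the share of members was 2.77% in the Cs2g series (41 of 1478), 2.67% in Cs9g (22 of 823) and 2.15% in Cs7g (34 of 1584). It was lowest in Cs4g, with 1.52% (15 of 986), and in orange1.1t, with 1.59% (29 of 1822). The others lay between 1.63% and 2.04%. Cs5g had nearly as many loci of the mirrored falling set as members, 26 against 27, while each of the other series had more members than falling loci. The differences between series were not tested.

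**Figure D4:**
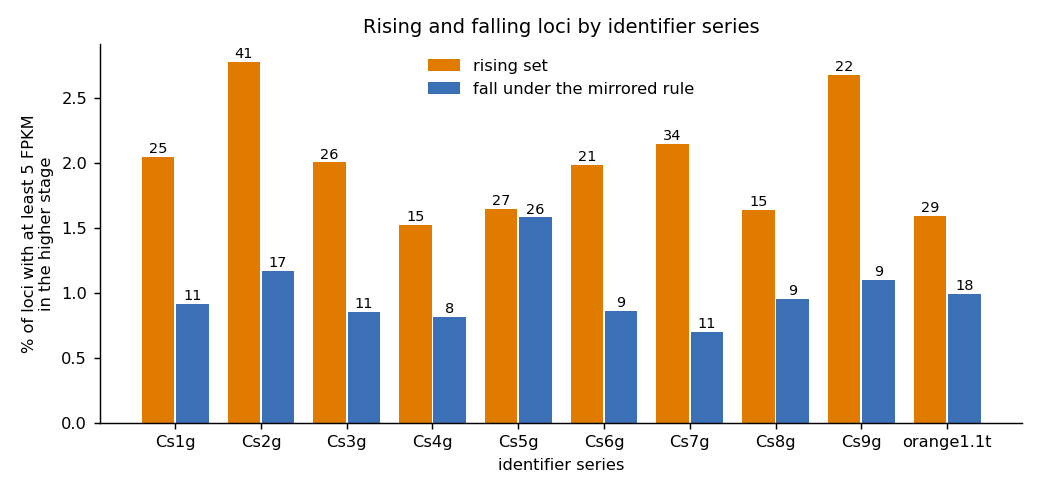
Share of loci that met the rule in each identifier series, in percent of the loci with at least 5 FPKM on the mean of the higher stage, for the rising set (orange) and for the mirrored falling set (blue). Numbers above the bars are counts of loci. The rising bars run from 1.52% in Cs4g to 2.77% in Cs2g, and only in Cs5g does the falling bar come near the rising one.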

How the data were processed

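RNA-seq libraries of navel orange peel, 2 at 120 and 2 at 150 days after flowering, were used as deposited. The authors computed FPKM per locus and library with TopHat and Cufflinks, per the submitters' processing notes. Software versions, genome build and gene models were not given in the sources used here. No strand-marking step is described, and the depth is unknown.

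The rule was applied to FPKM without a pseudocount. For the fit, loci averaging 1 FPKM or more were put on the log2(FPKM + 1) scale and compared between stages with limma 3.58.1 in R 4.3.3 (mean-variance trend, no block, two-sided, Benjamini-Hochberg adjustment, threshold 0.05). Python 3.11.15 and pandas 2.3.3 served for the rest. Replicates are the series' own pools. The p-values set the stage difference against the spread between these pools, drawn toward a trend over all loci in the fit. They take in no other source of variation.

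Named loci were the 8 highest at 150 days, the 8 largest separation folds above 0 in all libraries, members at 0 at 120 days, the 3 loci on either side of each limit, the 3 longest runs of neighbours (by level where equal) and the 3 largest replicate folds. Other loci beside these were chosen after their values were seen. The members and all choices were made with earlier results of these data known. No paper was used, so no functions are given.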

Additional observations from a re-analysis of the deposited data

How the results depend on the processing

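The rising, mirrored falling and neighbouring counts (255, 129 and 33) became 578, 356 and 105 at a fold of 1.5, 92, 27 and 6 at a fold of 3, and 417, 248 and 52 at a minimum of 1 FPKM. At a minimum of 10 FPKM, 192 members remained, 20 of them beside another. A pseudocount, both scalings and the handling of several identifiers or zeros moved the count of members to between 213 and 328, and 244 of the 255 were members after median scaling. Leaving out 1 library gave 338 to 389 rising, 172 to 227 falling and 42 to 69 neighbouring loci, since 3 values meet the rule more easily. For 31 named loci above 0 in all libraries, 192 of 217 alternative ratios of the stage means moved by no more than the replicate SD, 25 moved more and 0 changed sign, which the choice of members fixes. In limma, no filter on low values gave 116 loci called higher and 86 members among them (359 and 204 in the fit reported), and leaving out 1 library gave 11 to 222 loci and 6 to 135 members, with 1 residual degree of freedom and a single remaining library taken to be as variable as the stage with both. The cause of the filter's effect was not tested. With the replicate number as a block, 560 loci and 243 members were called. Deviations from the stage means were inversely correlated between same-numbered libraries (r = -0.33), and the labels do not say what a number shares. With the numbers crossed, a pairing added after the data were seen, 1157 loci and 252 members were called. The depth is unknown, so how far low values limit the set is unknown too.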

Other observations

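Loci outside the set, with several identifiers or none, were held to the same limits. Of 2402 such loci, 73 met them, 67 without a reference gene name and 6 with several identifiers. The highest of these, XLOC_022539, had 3595 and 5059.5 FPKM at 120 days against 12216 and 19197 FPKM at 150 days, and XLOC_017057 had 5804 and 5572 FPKM against 12397 and 13026 FPKM. Both stood above every member of the set in FPKM at both stages and carry no reference gene name. FPKM divides by length, so a very short locus can read high from few fragments, and these values alone do not show abundant transcripts. XLOC_031005, also without a name, was the most sharply separated among the 5 highest, with 90.5 and 93.4 FPKM at 120 days against 966 and 854 FPKM at 150 days, a separation fold of 9.15. The fragment numbers behind the values of these unnamed loci are unknown, and lengths were not used here. Their levels and folds may therefore rest on few fragments, which was not tested. Among loci with several identifiers the highest was that of Cs9g03570 and Cs9g03580, with 119 and 123 FPKM against 340.3 and 339 FPKM. They were chosen by level after their values were seen. The level limit placed all 73 loci in the limma fit, and its calls for them are not given here.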
